A study of Homo sapiens with 8 samples.

Results

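The 9 genes described here belong to the MHC class I antigen presentation pathway, and they were taken by symbol (HLA-B, HLA-C, HLA-E, B2M, TAP1, TAP2, TAPBP, CALR and ERAP1) from the 16796 genes of the count files. All 9 were present and all 9 passed the filter on low counts. Messenger RNA was measured by sequencing of polyadenylated RNA in LX-2 cells, which derive from human hepatic stellate cells in their activated state, the cells that become matrix-producing myofibroblasts in injured liver. LX-2 is a single immortalised line, kept here in medium with 5% serum, so the values hold for that line in culture. The control group had 4 biological replicates that received the vehicle DMSO, and the OGTi group had 4 that received OSMI-1 at 50 µM, in both cases for 24 h. OSMI-1 blocks O-GlcNAc transferase (OGT), the enzyme that places the sugar O-GlcNAc on proteins inside the cell, and the comparison asks how mRNA levels differ when OGT is inhibited. The libraries held 24166744 to 28201231 counts.

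MHC class I molecules display peptides from the inside of the cell to CD8 T cells. Peptides cut by the proteasome are pumped into the endoplasmic reticulum by the transporter TAP, trimmed there by aminopeptidases, and loaded onto a heavy chain bound to beta-2-microglobulin with the help of tapasin and calreticulin. Filled complexes then travel to the surface, where natural killer cells also read them. Interferons raise many of these genes together through shared promoter elements.

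The sequence just before the transcript start was read from RefSeq (GRCh38.p14) for 8 of the 9 genes and searched on both strands for 4 short motifs, because the class I genes are known for a shared promoter layout. HLA-E was not in that table. The motifs were the CCAAT box (CCAAT), the core of an interferon response element (AANNGAAA, written IRF core), the core of a kappaB site (GGGATTCC) and a cyclic AMP response core (TGACG). Among 35116 promoter windows of the same 250 bases, 32.0% held a CCAAT box, 20.3% an IRF core, 0.948% the kappaB core and 21.2% the cyclic AMP response core. Each sequence below is the 250 bases that end at the base before the start, 5′ to 3′ on the strand of the gene, with motif matches in capitals. The first pair shows HLA-B (chr6:31357180-31357429, minus strand) and HLA-C (chr6:31272093-31272342, minus strand), which differ by an edit distance of 28 bases over the 250.
HLA-B: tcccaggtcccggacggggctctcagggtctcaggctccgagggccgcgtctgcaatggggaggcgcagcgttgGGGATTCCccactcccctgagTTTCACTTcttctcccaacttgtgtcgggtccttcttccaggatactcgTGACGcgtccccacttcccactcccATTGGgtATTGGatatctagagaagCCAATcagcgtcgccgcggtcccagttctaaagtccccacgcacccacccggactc
HLA-C: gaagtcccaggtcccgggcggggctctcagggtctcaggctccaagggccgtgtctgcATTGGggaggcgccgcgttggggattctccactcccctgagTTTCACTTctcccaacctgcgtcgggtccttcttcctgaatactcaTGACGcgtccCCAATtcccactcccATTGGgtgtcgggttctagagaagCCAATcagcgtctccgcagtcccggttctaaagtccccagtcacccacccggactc
HLA-B held all 4 motifs, in the order kappaB core, IRF core (TTTCACTT on the opposite strand), cyclic AMP response core and CCAAT boxes. HLA-C held an IRF core, a cyclic AMP response core and CCAAT boxes, and no exact kappaB core. B2M (chr15:44711267-44711516, plus strand) is shown as the partner of every heavy chain, and held a pair of overlapping IRF cores, a cyclic AMP response core and a CCAAT box.
B2M: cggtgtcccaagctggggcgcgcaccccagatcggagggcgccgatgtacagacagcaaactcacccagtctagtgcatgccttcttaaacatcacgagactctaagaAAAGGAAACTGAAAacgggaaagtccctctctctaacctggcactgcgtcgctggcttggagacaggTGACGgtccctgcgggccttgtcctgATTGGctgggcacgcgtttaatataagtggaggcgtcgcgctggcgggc
TAP1 (chr6:32853705-32853954, minus strand) is shown because its start lies 488 bases from that of the immunoproteasome gene PSMB9 on the opposite strand, and it held a CCAAT box and a pair of overlapping IRF cores.
TAP1: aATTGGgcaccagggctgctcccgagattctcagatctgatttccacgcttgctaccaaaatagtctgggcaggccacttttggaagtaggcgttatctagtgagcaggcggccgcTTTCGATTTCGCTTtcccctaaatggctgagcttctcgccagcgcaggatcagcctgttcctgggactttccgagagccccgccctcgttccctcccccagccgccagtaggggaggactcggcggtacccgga
TAPBP (chr6:33314079-33314328, minus strand) and ERAP1 (chr5:96807946-96808195, minus strand) are shown because they fell. Of the 4 motifs TAPBP held a pair of overlapping IRF cores close to the start, and ERAP1 held a CCAAT box.
TAPBP: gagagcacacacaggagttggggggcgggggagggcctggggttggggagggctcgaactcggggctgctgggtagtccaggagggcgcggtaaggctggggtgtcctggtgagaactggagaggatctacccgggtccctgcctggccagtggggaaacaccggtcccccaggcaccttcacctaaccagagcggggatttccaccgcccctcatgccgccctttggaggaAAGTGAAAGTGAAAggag
ERAP1: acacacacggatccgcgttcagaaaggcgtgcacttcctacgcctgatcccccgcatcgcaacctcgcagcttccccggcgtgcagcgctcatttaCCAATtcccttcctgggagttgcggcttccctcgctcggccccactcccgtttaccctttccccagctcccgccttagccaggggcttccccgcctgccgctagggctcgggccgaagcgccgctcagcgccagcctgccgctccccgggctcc
A match gives the letters only and is not evidence that a factor was bound in these cells. Only the letters given were searched, so other forms of these sites, those of the kappaB site included, were not looked for.

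The 9 genes did not move together under OGTi. Counts were scaled by the size factor of each library (normalized counts), and a gene was called when its q-value, the Benjamini-Hochberg adjusted p-value over all 14028 genes tested, was 0.05 or lower. TAPBP (tapasin) and ERAP1 were called lower, HLA-E and TAP1 were called higher, and HLA-B, HLA-C, B2M, TAP2 and CALR were not called. So many genes moved in these libraries that such a count is no sign of a change particular to the pathway: 46.6% of all genes tested were called, 22.7% higher and 24.0% lower, beside 4, 2 and 2 of the 9. The median log2 FC of the 9 was 0.04, against 0.00 over all genes tested. HLA-E and TAPBP, 2 of the 9, had groups that did not overlap, which 40.0% of all genes tested had.

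**Figure D1:**
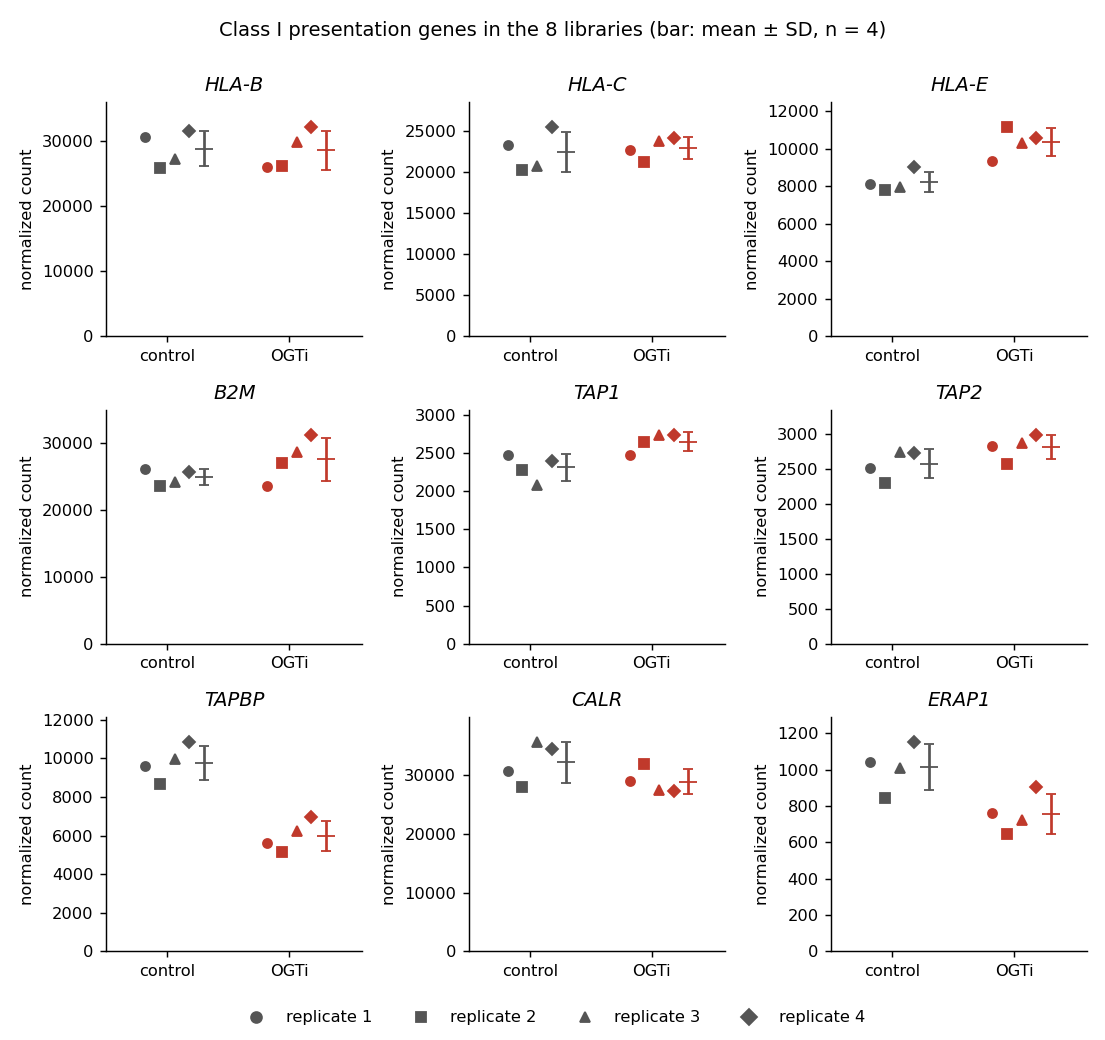
Normalized counts of the 9 genes in each library, 1 panel a gene with a vertical axis from 0, control on the left and OGTi on the right. Points are the 4 libraries of a group, with a marker shape for each replicate, and the dash beside them is the mean with the SD as its error bar. TAPBP sits at 5137 to 6939.8 in OGTi, below every control library, and HLA-E at 9359.7 to 11171, above every control library.

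The heavy chains carry the peptide groove. HLA-B stood at 30489, 25736, 27211 and 31458 normalized counts in control replicates 1 to 4 and at 25947, 26139, 29740.3 and 32103 in OGTi replicates 1 to 4. HLA-B lies at chr6:31353872-31367067, minus strand (GRCh38), and averaged 28724 ± 2696 in control and 28482 ± 2978 in OGTi (SD, n = 4). Its log2 FC was -0.01 ± 0.07 (q-value 0.904, 95% interval -0.16 to 0.13). Here and below, the ± after a log2 FC is the standard error from the DESeq2 model, and the ± after a mean is the SD. The libraries of the groups interleaved, and OGTi was higher in 3 of 4 pairs.

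HLA-C stood at 23340.03, 20283, 20761 and 25501 normalized counts in control replicates 1 to 4 and at 22656, 21239, 23779.8 and 24142 in OGTi replicates 1 to 4. HLA-C (chr6:31268749-31272130, minus strand), the other classical chain among the 9 and a main ligand of inhibitory killer cell receptors, averaged 22471 ± 2425 in control and 22954 ± 1307 in OGTi (log2 FC 0.04 ± 0.07, q-value 0.714, interval -0.10 to 0.17), with OGTi higher in 2 of 4 pairs. The intervals leave room for changes of either sign in both chains, and together HLA-B and HLA-C gave 51195 ± 5077 in control and 51437 ± 4162 in OGTi.

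HLA-E stood at 8124, 7815, 7934 and 9046 normalized counts in control replicates 1 to 4 and at 9359.7, 11171, 10330.03 and 10557 in OGTi replicates 1 to 4. HLA-E (chr6:30489509-30494194, plus strand), a non-classical chain that displays leader peptides of other class I chains to the receptor NKG2A on natural killer cells, rose by 25.8% from 8229.6 ± 559 to 10354 ± 752 (log2 FC 0.33 ± 0.07, q-value 3.28e-05, interval 0.19 to 0.47). Every OGTi library stood above every control library, and all 4 pairs were higher. HLA-E held fractional counts in 8 of 8 libraries and so did HLA-C, HLA-B in 7 of 8, which arises where RSEM divides a read with several alignments, so the values per heavy chain gene are uncertain to that extent. The count of HLA-B, HLA-C and HLA-E together, which sharing among these chains would leave in place, differed by a mean log2 ratio of 0.06 over the pairs (SD 0.13). Whether the alleles of LX-2 cells align to the reference as well as others do was not tested.

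Beta-2-microglobulin is the light chain that every class I heavy chain needs for folding. B2M stood at 26172, 23617, 24273 and 25673 normalized counts in control replicates 1 to 4 and at 23604, 26986, 28624 and 31298 in OGTi replicates 1 to 4. B2M (chr15:44711358-44718851, plus strand) averaged 24934 ± 1190.5 in control and 27628 ± 3218 in OGTi (log2 FC 0.14 ± 0.08, q-value 0.130, interval -0.01 to 0.30). The first pair was lower and the other 3 were higher, and without replicate 1 the log2 FC was 0.24 with a q-value of 0.00121. The B2M count for each heavy chain count (HLA-B, HLA-C and HLA-E) went from 0.421 ± 0.022 to 0.446 ± 0.027, with overlapping groups.

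TAP1 and TAP2 form the peptide transporter. TAP1 stood at 2481, 2284, 2086 and 2401 normalized counts in control replicates 1 to 4 and at 2481, 2652, 2744 and 2735 in OGTi replicates 1 to 4. TAP1 (chr6:32845209-32853816, minus strand) rose from 2313 ± 172 to 2653 ± 122 (log2 FC 0.20 ± 0.08, q-value 0.0400), with 3 of 4 pairs higher, the first pair level and groups that met at a count of 2481. The call did not hold in every setting: the q-value was 0.0560 in edgeR without the replicate block, and 0.155, 0.300 and 0.136 without replicate 2, 3 or 4.

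TAP2 stood at 2522, 2307, 2749 and 2733 normalized counts in control replicates 1 to 4 and at 2826, 2580.5, 2875 and 2996 in OGTi replicates 1 to 4. TAP2 (chr6:32821833-32838739, minus strand) was higher in 4 of 4 pairs but not called, with 2578 ± 208 in control and 2819 ± 175 in OGTi (log2 FC 0.13 ± 0.07, q-value 0.132, interval -0.01 to 0.27). The ratio of TAP1 to TAP2 within a library went from 0.903 ± 0.109 to 0.943 ± 0.064, and its groups overlapped.

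Tapasin ties the empty heavy chain to TAP and edits its peptide. TAPBP stood at 9588, 8672, 9959.9 and 10838 normalized counts in control replicates 1 to 4 and at 5638, 5137, 6221 and 6939.8 in OGTi replicates 1 to 4. TAPBP (chr6:33299694-33314284, minus strand) fell by 38.9% from 9764 ± 897 to 5984 ± 776 (log2 FC -0.71 ± 0.07, q-value 3.18e-26, interval -0.84 to -0.58). It was lower in 4 of 4 pairs, the lowest control library stood above the highest OGTi library, and the call was made in 11 of 11 alternative settings. TAPBP had fractional counts in 8 of 8 libraries.

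Calreticulin is a calcium-binding chaperone that holds the glycosylated heavy chain in the loading complex. CALR stood at 30751, 28051, 35607 and 34433 normalized counts in control replicates 1 to 4 and at 28971, 31937, 27511 and 27265 in OGTi replicates 1 to 4. CALR (chr19:12938578-12944489, plus strand) averaged 32210.4 ± 3459.8 in control and 28921 ± 2147 in OGTi (log2 FC -0.15 ± 0.09, q-value 0.149, interval -0.32 to 0.02). The second pair was higher and the other 3 were lower, and without replicate 2 the log2 FC was -0.26 with a q-value of 0.0115.

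ERAP1 is the aminopeptidase that trims peptides in the endoplasmic reticulum to the length the groove takes. ERAP1 stood at 1043, 845, 1010.1 and 1151 normalized counts in control replicates 1 to 4 and at 760.3, 644, 723 and 907 in OGTi replicates 1 to 4. ERAP1 (chr5:96760810-96808100, minus strand) fell by 25.2% from 1013 ± 127 to 758 ± 110.04 (log2 FC -0.42 ± 0.10, q-value 5.25e-05, interval -0.61 to -0.23). All 4 pairs were lower, and the call was made in 11 of 11 alternative settings, although control replicate 2 stood below OGTi replicate 4.

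**Figure D2:**
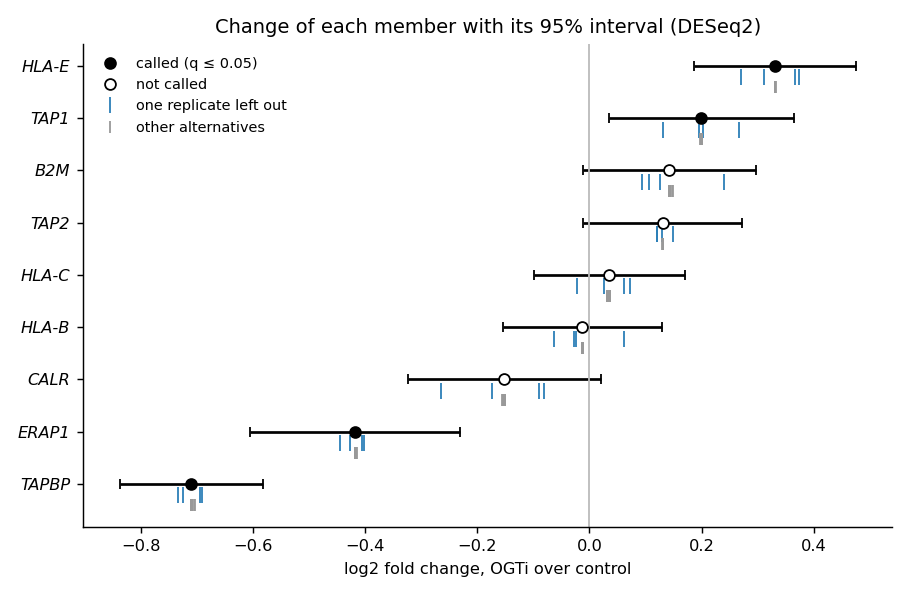
Log2 FC of OGTi over control for the 9 genes from the DESeq2 model, with 95% intervals as bars, filled circles for called and open circles for not called, and ticks for the values with a replicate left out (blue) and under the other alternatives (grey). The intervals of TAPBP (-0.84 to -0.58) and ERAP1 (-0.61 to -0.23) lie below 0 and that of HLA-E (0.19 to 0.47) above it.

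Levels were ranked between genes per length, as normalized counts per kilobase of the MANE transcript. Ratios of counts between genes, above and below, are not scaled for length and serve only to compare the groups. In control B2M stood highest at 26441 ± 1262, then HLA-B at 18700.3 ± 1755, CALR at 16944 ± 1820.01 and HLA-C at 14573 ± 1573. Lower came HLA-E at 3229.8 ± 219 and TAPBP at 2830.2 ± 260.1, and lowest TAP1 at 861 ± 64.0, TAP2 at 457 ± 36.9 and ERAP1 at 209 ± 26.2. In that order the ranges of HLA-B and CALR, of CALR and HLA-C, and of HLA-E and TAPBP overlapped. In OGTi the order by mean was the same, only CALR at 15213 ± 1129 and HLA-C at 14886 ± 847 overlapped among neighbours, and HLA-E at 4064 ± 295 stood apart from TAPBP at 1734 ± 225.

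**Figure D3:**
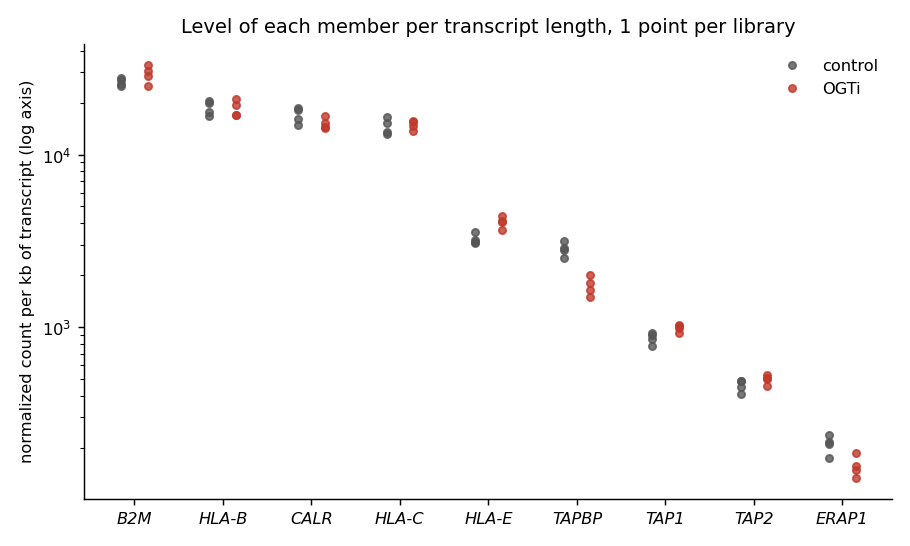
Normalized counts per kilobase of transcript for the 9 genes on a log10 axis, with the 4 libraries of each group as points, control in grey and OGTi in red. The levels run from B2M (26441 ± 1262 in control) down to ERAP1 (209 ± 26.2), and HLA-E and TAPBP overlap in control but not in OGTi.

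Ratios within a library do not depend on its size factor. The TAPBP count for each TAP1 count, its partner in the loading complex, went from 4.24 ± 0.483 to 2.25 ± 0.246, from a control range of 3.80 to 4.78 to an OGTi range of 1.94 to 2.54. TAPBP to HLA-B went from 0.340 ± 0.021 to 0.210 ± 0.0095 and HLA-E to HLA-B from 0.287 ± 0.015 to 0.366 ± 0.043. ERAP1 to B2M went from 0.0405 ± 0.0038 to 0.0276 ± 0.0038. Groups did not overlap in these 4 ratios. Each has TAPBP, HLA-E or ERAP1 as its numerator, genes that were called on their own, so the separation is not independent of those calls.

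**Figure D4:**
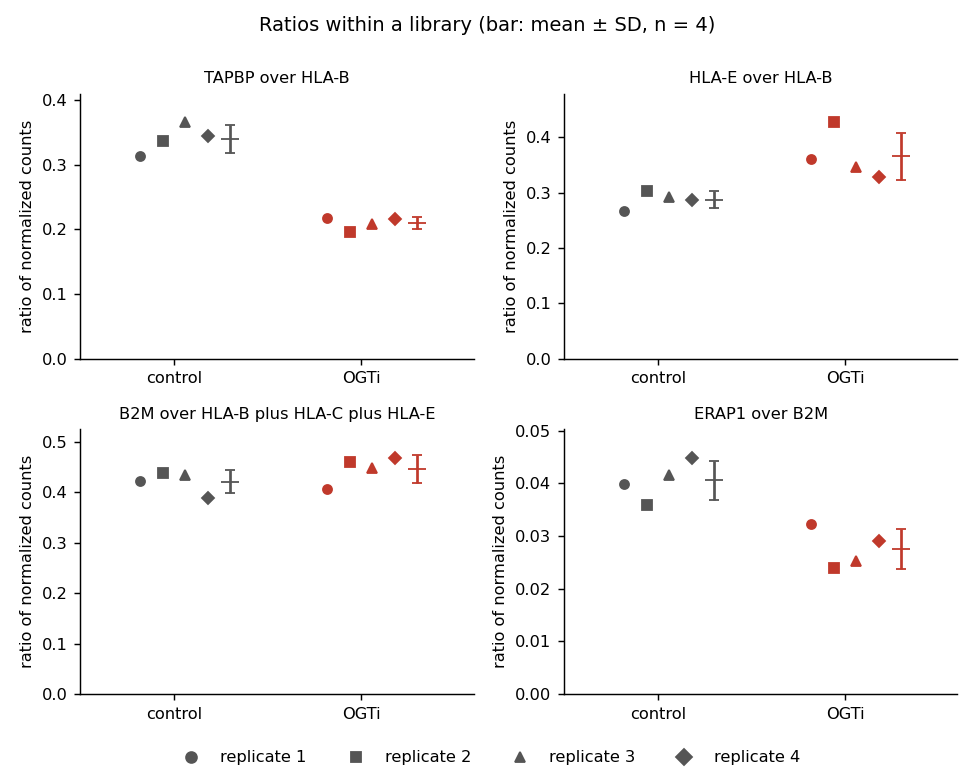
Ratios of normalized counts within each library for 4 ratios of class I genes, 1 panel a ratio with a vertical axis from 0. Points are libraries with a marker shape for each replicate, and the dash is the mean with the SD over 4. TAPBP to HLA-B, HLA-E to HLA-B and ERAP1 to B2M separate the groups, and B2M to the heavy chains does not.

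The genes with profiles closest to HLA-B over the 8 libraries, by the root mean square difference of centred log2 values, were VPS26A (0.0357), BLCAP (0.0396) and TMEM199 (0.0463), against a median of 0.238 over 10993 genes. Among the other members HLA-C was nearest to HLA-B, at rank 16 with 0.0645, and TAPBP furthest, at rank 8671 with 0.356. The closest to B2M were UFM1 (0.0394), THAP6 (0.0424) and BET1L (0.0460). Among the members TAP1 was nearest to B2M, at rank 74 with 0.0867, and TAPBP furthest, at rank 9536 with 0.439. HLA-B and B2M were themselves not called.

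Around the 9 genes, 8 lists of the pathway held 85 genes, of which 77 were tested, with 26 called higher, 11 called lower and 40 not called. The 37 called are 48.1% of those tested, near the 46.6% over all genes tested, with 33.8% higher and 14.3% lower beside 22.7% and 24.0% over all genes. The counts per list that follow are to be read against the same shares. Among the other class I heavy chains, HLA-F was at 303 ± 86.2 in control and 239.95 ± 12.3 in OGTi (log2 FC -0.30 ± 0.18, q-value 0.154) and HLA-G at 14.0 ± 5.74 in control and 6.81 ± 4.69 in OGTi (log2 FC -1.20 ± 0.72, q-value 0.168), neither called.

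Of 10 other genes of peptide loading and trimming, 5 rose, 2 fell and 3 were not called, with a median log2 FC of 0.25. The rises included CANX, the membrane chaperone that holds new heavy chains, from 15701 ± 1907 to 21326 ± 2174 (log2 FC 0.44 ± 0.07, q-value 9.84e-11), and PDIA3, the disulphide isomerase bound to tapasin, from 11403 ± 259 to 13855 ± 694 (log2 FC 0.28 ± 0.06, q-value 3.57e-05). HSPA5, the general chaperone of the endoplasmic reticulum, and SEC61A1, the core of its protein channel, rose as well (log2 FC 0.48 ± 0.07, q-value 5.79e-11, and log2 FC 0.44 ± 0.06, q-value 4.04e-11). GANAB, a glucosidase that prepares glycans for calnexin and calreticulin, fell from 28145 ± 1647 to 20151 ± 2151 (log2 FC -0.49 ± 0.08, q-value 1.97e-09). The other gene that fell was ERAP2, a related trimming aminopeptidase named after its values were seen, from 457 ± 123 to 293 ± 145 (log2 FC -0.71 ± 0.15, q-value 9.42e-06). Its libraries spread widely within each group, and with no replicate block the q-value was 0.155 in DESeq2 and 0.0677 in edgeR.

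Of 12 proteasome and peptidase genes, 4 rose, 2 fell and 6 were not called (median 0.09). PSME2, a subunit of the proteasome activator induced by interferon, rose from 2813 ± 406 to 4736 ± 163 (log2 FC 0.76 ± 0.08, q-value 2.67e-18), and the immunoproteasome subunit PSMB10 from 247 ± 55.3 to 479 ± 74.1 (log2 FC 0.96 ± 0.14, q-value 5.86e-11). LAP3, a cytosolic leucine aminopeptidase, also rose (log2 FC 0.42 ± 0.09, q-value 1.64e-05), and BLMH, bleomycin hydrolase, fell (log2 FC -0.64 ± 0.11, q-value 9.01e-08). The other immunoproteasome subunits were not called, PSMB8 at 1016 ± 108 in control and 858 ± 98.5 in OGTi (log2 FC -0.24 ± 0.12, q-value 0.0761) and PSMB9 at 545 ± 153 in control and 571 ± 19.0 in OGTi (log2 FC 0.10 ± 0.14, q-value 0.573). The start of PSMB9 lies beside that of TAP1, as given with the TAP1 sequence.

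Of 16 factors that act on class I promoters, 3 rose, 2 fell and 11 were not called (median 0.02). IRF1, which binds the interferon response element, rose from 529.9 ± 112 to 918 ± 151 (log2 FC 0.80 ± 0.11, q-value 3.97e-12), and STAT2 rose (log2 FC 0.57 ± 0.11, q-value 4.80e-07). NFYB, a subunit of the factor that binds CCAAT boxes, fell from 715 ± 76.9 to 335 ± 28.7 (log2 FC -1.09 ± 0.12, q-value 4.67e-18), and ATF1, which binds cyclic AMP response elements, fell (log2 FC -0.43 ± 0.09, q-value 7.68e-06). NLRC5, the class I transactivator, was at 1609 ± 138 in control and 1520.3 ± 73.4 in OGTi (log2 FC -0.08 ± 0.09, q-value 0.515), not called. Of 9 interferon receptor genes, kinases and inhibitors, 4 rose and 2 fell (median 0.28): the interferon gamma receptor chain IFNGR1 rose (log2 FC 0.55 ± 0.10, q-value 3.56e-07), IFNGR2 fell (log2 FC -0.70 ± 0.12, q-value 1.20e-08), and the kinases TYK2 (log2 FC 0.34 ± 0.07, q-value 9.60e-06) and JAK1 (log2 FC 0.28 ± 0.07, q-value 2.79e-04) rose.

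Ligands of the activating killer cell receptor NKG2D, known from stressed cells, rose in 6 cases, and MICA, RAET1G and MICB had the 3 largest positive log2 FC among the 77 genes tested. Of 11 class I-like genes tested, 6 rose and 5 were not called (median 0.48). MICA went from 622 ± 28.2 to 1797 ± 248 (log2 FC 1.52 ± 0.11, q-value 1.54e-43), MICB from 1001 ± 42.0 to 1981 ± 128 (log2 FC 0.98 ± 0.08, q-value 1.00e-30), RAET1G from 125 ± 25.1 to 363 ± 49.8 (log2 FC 1.55 ± 0.16, q-value 1.07e-19) and ULBP2 from 491 ± 33.9 to 717 ± 55.6 (log2 FC 0.55 ± 0.12, q-value 1.36e-05). The 6 NKG2D ligands that rose summed to 3147 ± 64.8 in control and 6175 ± 597 in OGTi, a ratio of 1.96. They were summed because they rose, so a rise of the sum follows from that choice. The other NKG2D ligands of the list were not called or did not pass the filter on low counts. Reads can be shared within these families.

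Of 10 genes that remove class I or its parts, 4 rose, 3 fell and 3 were not called (median 0.12). HM13, the signal peptide peptidase that frees the leader peptides HLA-E displays, rose from 6163 ± 394 to 10354 ± 461 (log2 FC 0.75 ± 0.07, q-value 2.00e-25), as did the ubiquitin ligases SYVN1 (log2 FC 0.61 ± 0.08, q-value 8.47e-14) and TMEM129 (log2 FC 0.76 ± 0.10, q-value 1.95e-13). MARCHF4 (MARCH4 in the files), a ligase that takes class I from the surface, fell from 3338 ± 121 to 2659 ± 172 (log2 FC -0.33 ± 0.08, q-value 6.70e-05). Of 6 MHC class II genes tested, 0 were called by DESeq2, 0 had an unadjusted p under 0.05, and 0 were called by edgeR.

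**Figure D5:**
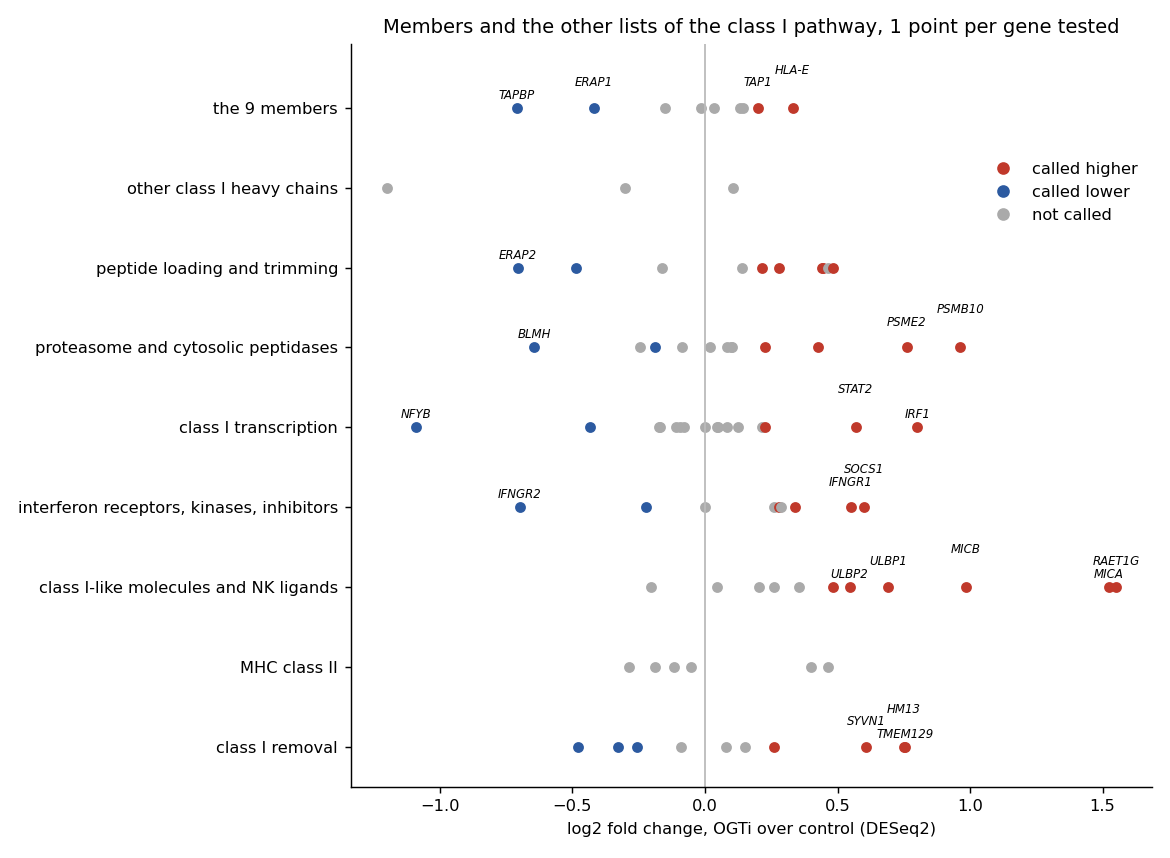
Log2 FC of OGTi over control for the 9 genes and 8 further lists, 1 point a gene tested, red for called higher, blue for called lower and grey for not called. The list of class I-like molecules and NK ligands has a median of 0.48, with HFE to the left of 0 (-0.21). The 9 genes lie on both sides of 0 (median 0.04).

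The libraries carried the markers of activated stellate cells, 11 of 11 with counts, whose sum was 256718 to 292692 in control and 187004 to 223192 in OGTi. VIM (mean 95086 in control, 89632 in OGTi) and COL1A1 (84778 and 43931) had the highest counts among them. Of the 11, 9 were called lower, TIMP1 was called higher and VIM was not called, with a median log2 FC of -0.90. Over all genes tested 24.0% were called lower and 22.7% higher. In bulk RNA of a single line, a change in every cell and a change in a part of the cells cannot be told apart. Of 13 leukocyte markers, 7 had a row, and none of those was at 0 in every library. Without CD68, a lysosomal protein also made outside leukocytes, the others summed to 77.0 to 117 in control and 56.1 to 121 in OGTi, and with it to 2510.1 to 4101 and 5633 to 9406. Endothelial markers summed to 75.0 to 98.6 and 19.0 to 45.7, and hepatocyte markers to 19.5 to 76.0 and 27.9 to 76.8. Epithelial markers summed to 682 to 1151 and 955 to 1273, most of it SOX9, at 579.7 to 1019 in control and 906 to 1196 in OGTi. KRT7 fell (log2 FC -1.05 ± 0.26, q-value 2.29e-04), and KRT19 and CDH1 reached at most 3.01 and 1.88 normalized counts in a library. The part of CD68 and of the stellate markers in the changes above was not tested.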

How the data were processed

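Polyadenylated RNA of 4 control and 4 OGTi LX-2 cultures was sequenced from both ends with a stranded protocol. The authors aligned reads to hg38 with Bowtie2 2.3.5.1, keeping up to 200 alignments per read, and the deposited values are expected counts from RSEM 1.3.1, not scaled for depth, of which 12.9% to 16.3% of the genes of a library were fractional. The authors also deposited a DESeq2 1.36.0 comparison table (fold changes, standard errors, statistics, p-values), which was not used.

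Expected counts were rounded, and genes with a total under 10 were left out, leaving 14895. DESeq2 1.42.0 in R 4.3.3 was run with median-of-ratios size factors, the replicate number as a block, independent filtering and no shrinkage, and 14028 genes received a q-value (called at 0.05). The methods of the study pair the control and treated culture of a replicate, hence the block. Correlations of deviations from the group mean between libraries of the same number were 0.372, 0.391, 0.165 and 0.327 over 10994 genes. Control replicate 3 correlated more with OGTi replicate 4 (0.343), and OGTi replicate 3 more with control replicate 4 (0.255). For replicates 3 and 4 these values do not single out the numbered pairing, and the block and the counts of pairs rest on the numbering there. edgeR 4.0.16 was the alternative, and the code was tested on simulated data. Positions and MANE transcript lengths came from GENCODE 44 (GRCh38).

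The members and lists were chosen with earlier results of these data known. Named were all 9 members, up to 4 called genes with the largest Wald statistic of each list, every gene of lists with 5 or fewer tested, PSMB8, PSMB9, NLRC5, IRF1, PDIA3 and CANX, and the 3 genes most like HLA-B and B2M among those that averaged 100 normalized counts or more, on log2 values with a pseudocount of 1. Some genes of the lists are counted but not reported here by name.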

Additional observations from a re-analysis of the deposited data

Results flagged for a closer look

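Among 82 groups of 4 libraries (the named genes, control and OGTi each), 2 held a library far from its other 3, where chance flags about 1 in 20 groups, or 4.1 of 82. JAK1 was at 7075 normalized counts in OGTi replicate 3, with the other OGTi libraries at 7399 to 7439.7. PDIA3 was at 14885 in OGTi replicate 2, with the others at 13427 to 13652. Neither was among the 9 class I genes.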

How the results depend on the processing

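The 4 calls among the 9 genes were repeated under 11 alternatives, comprising other size factors, edgeR, other filters, no replicate block and leaving out each replicate. TAPBP, ERAP1 and HLA-E kept their call in all 11, and none of the 4 called genes changed sign under them. HLA-B (-0.06 to 0.06) and HLA-C (-0.02 to 0.07) were called under none, with either sign. Without the replicate block DESeq2 called 6307 genes instead of 6541, and the members called did not differ in number. edgeR with no replicate block called 6041 genes and 1 member higher, because TAP1 lost its call (0.20, q-value 0.0560). Leaving out a replicate gave 1 to 3 members called higher, with log2 FC of 0.13 to 0.27 for TAP1, 0.093 to 0.24 for B2M and -0.26 to -0.082 for CALR. B2M was called without replicate 1 and CALR without replicate 2, and the cause was not tested. The block moved no other call among the 9. PSMB8 was called in edgeR with the block (q-value 0.0469) and without replicate 2 (-0.35), and ERAP2 was not called without the block.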
